A study of Mus musculus with 6 samples.

Results

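Levels of 10 BCL2 family genes were followed among the 55394 genes listed for each library of lung group 2 innate lymphoid cells (ILC2s), lymphocytes that lack antigen receptors and release type 2 cytokines. The 10 genes were picked by symbol alone, and each symbol had a single entry. They comprised 5 pro-survival members (Bcl2, Bcl2l1, Mcl1, Bcl2a1b and Bcl2a1d), 2 effectors (Bax and Bak1) and 3 BH3-only members (Bcl2l11, Pmaip1 and Bid).

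BCL2 family proteins decide whether the outer membrane of the mitochondrion stays sealed. Bax and Bak1 form the pores that release cytochrome c, the pro-survival proteins hold them in check, and BH3-only proteins either occupy the pro-survival proteins or engage the effectors. Each BH3-only protein has its own partners, and the product of Pmaip1 (NOXA) binds chiefly MCL1 and A1, the protein made by the Bcl2a1 genes. In lymphocytes, the balance of these proteins is set in large part by cytokines that act through the common gamma chain receptors.

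The cells came from neonates born to C57BL/6 dams and were labelled wild type. In the Abx group (3 libraries), the dams drank ampicillin, metronidazole, neomycin and vancomycin between gestation days 10 and 14, and in the Con group (3 libraries) the dams were controls. Each library was made by SMART-seq, a method for low amounts of RNA, from 1000 cells sorted as CD45+, CD90.2+, CD25+ and negative for markers of T, B, NK, myeloid and erythroid cells. The age and sex of the pups behind these libraries, the number of pups pooled in each, and whether the libraries of a group came from separate litters are not given in the sources used here, so p-values measure only the spread between these libraries. Levels are in FPKM (fragments per length of exon and per number of mapped reads), which allows genes to be set side by side, and differences between groups are on the log2(FPKM + 1) scale, which understates changes of low genes.

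Total FPKM ranged from 420941 to 449523 in Con and from 431613.5 to 489262 in Abx, and 8574 to 9203 genes in Con and 7074 to 8193 in Abx reached 1 FPKM. Read numbers are not known from FPKM, and the labels and methods give no sequencing batch. Of 14 ILC2 markers, 13 were at 1 FPKM or more in all 6 libraries, with a summed level of 2864 to 3266 FPKM in Con and 2176 to 2749 in Abx. The exception was Il1rl1, which encodes the IL-33 receptor and was at 0.06 to 2.94 FPKM in Con and 0.01 to 0.03 in Abx. Markers of other lymphocytes moved with the group: 11 T cell markers summed to 1293 to 1469 FPKM in Con and 2729 to 3119 in Abx, 11 B cell markers to 566 to 722 and 1335 to 1589, and 8 NK cell markers to 9.12 to 58.95 and 268 to 431. Of these T cell, B cell and NK cell markers, 6, 5 and 2 were higher in each Abx library than in each Con library, and 1 B cell marker, Cd79b, was lower. The T cell sum was mostly Trbc1 (208 to 387 FPKM in Con, 633 to 778 in Abx) and Trbc2 (874 to 958 and 1639 to 1803). The groups overlapped for Trac (3.01 to 11.67 and 0.22 to 21.18), Cd3e (1.55 to 7.57 and 4.31 to 18.48), Cd4, Cd5 and Cd8a. Gzma and Nkg7 were the 2 NK cell markers with a higher mean in Abx, and Ncr1 was listed at 0 in each Abx library. Of the ILC2 markers, 4 were lower and 1 was higher in each Abx library. The 7 mast cell and basophil markers summed to 414 to 558 FPKM in Con and 185 to 318 in Abx, and the sums of neutrophil, myeloid, erythroid, epithelial, endothelial and fibroblast markers overlapped between the groups. The erythroid sum, at 6422 to 14823 FPKM in Con and 3166 to 8659 in Abx, was above the ILC2 sum in each library. The epithelial sum was 24.56 to 1158 FPKM in Con and 55.72 to 142 in Abx. Mean levels were higher in Abx for Cd3d (6.29 FPKM in Con, 69.65 in Abx), Lck (58.8 and 225) and Gzma (8.18 and 219). Nkg7 was at 7.61 to 37.26 FPKM in Con and 52.16 to 212.26 in Abx. Cd4 and Pax5 were listed at 0 in each Con library. In Abx libraries 1 to 3, Cd4 was at 0, 7.46 and 0 FPKM and Pax5 at 2.33, 0.33 and 0 FPKM, and neither gene passed the filter for testing. Klrb1c, Prf1, Klra8 and Tbx21 were listed at 0 in all 6 libraries. Xist, the RNA of the inactive X chromosome, was at 3.78, 4.38 and 5.09 FPKM in Con and listed at 0 in each Abx library, while the Y-linked Eif2s3y was at 0.03 to 0.86 FPKM in Con and 11.85 to 24.37 in Abx. The sex of the pups therefore cannot be told apart from the exposure in any comparison given here.

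Of the 10 genes, Pmaip1 was the 1 whose groups did not overlap, which held for 8.73% of all genes tested with Abx lower. Its mean level was 31.4 ± 2.93 FPKM in Con compared with 1.04 ± 1.21 in Abx (SD, n = 3), with a limma adjusted p of 0.0911 that missed the threshold. The pro-survival genes and Bax were expressed in all 6 libraries, and their differences between the groups were within the spread of the libraries. Of the 10 genes, 9 passed the filter of 1 FPKM in at least 3 libraries and 0 of them were called at a fold change over 2 with an adjusted p under 0.05 (limma, Benjamini-Hochberg adjustment over all 8718 genes tested), where 5 genes, 0.0574%, were called over the whole table. At an unadjusted p under 0.05 there was 1 of these 9 genes, Pmaip1, a share near the 11.0% (958 genes) of all genes tested. The Con libraries of Pmaip1 alone met the filter, so its p and adjusted p are those of a gene kept for its Con levels. In bulk libraries of this kind, fewer cells that express a gene and less RNA per cell cannot be told apart.

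**Figure D1:**
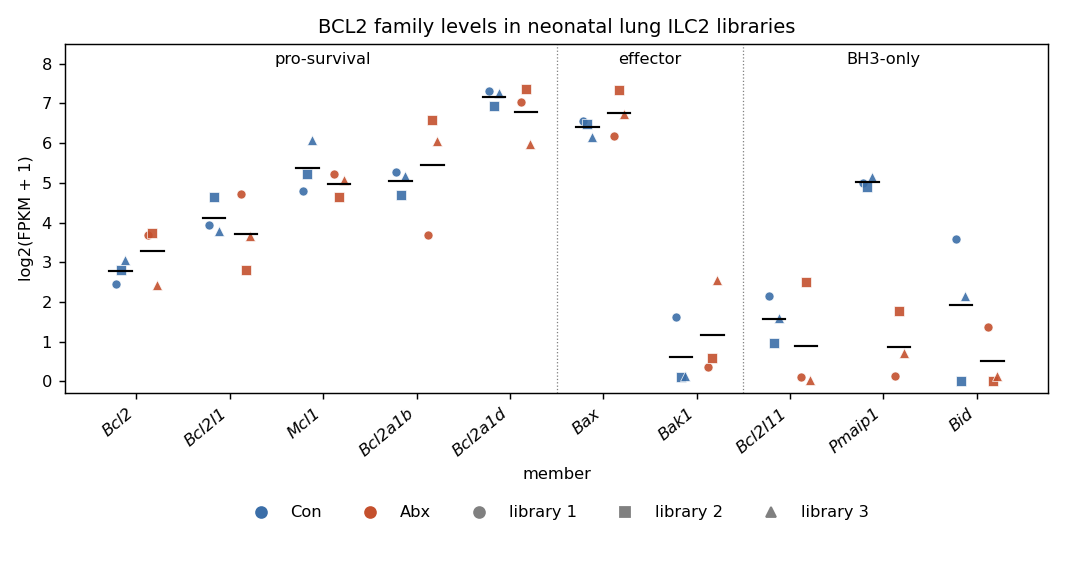
Level of the 10 BCL2 family genes as log2(FPKM + 1) on the y axis, grouped by role along the x axis. Points are libraries (blue Con, orange Abx, with the marker shape giving the library number) and black lines are group means of 3 libraries. The Con and Abx points are apart for Pmaip1 and overlap for the other 9 genes.

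Bcl2a1d (ENSMUSG00000099974) had the highest mean level of the pro-survival genes. Con libraries 1 to 3 gave 158.12, 121.87 and 153.43 FPKM, and Abx libraries 1 to 3 gave 130.89, 163.94 and 62.22 FPKM. The highest and the lowest library were both Abx libraries, so the groups overlapped. The fitted difference, Abx minus Con, was -0.38 on the log2(FPKM + 1) scale (SE 0.37, limma adjusted p = 0.774), and it became 0.029 without Abx library 3, the lowest. Bcl2a1d supplied 55.9% to 65.4% of the summed pro-survival FPKM in Con and 35.4% to 60.5% in Abx.

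Bcl2a1b (ENSMUSG00000089929), another copy of the same gene, was at 37.81, 24.77 and 34.81 FPKM in Con against 11.96, 94.34 and 65.01 in Abx. Abx library 1 lay below all Con libraries and the other Abx libraries lay above them. The fitted difference was 0.40 (SE 0.72, limma adjusted p = 0.887). It was 1.27 without Abx library 1 (limma, unadjusted p = 0.0107) and -0.17 without Abx library 2, so the direction of the Bcl2a1b difference rested on single libraries.

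The Bcl2a1 copies lie close together on chromosome 9 and are nearly identical, which bears on how reads can be assigned to them. In GENCODE M21 (GRCm38), Bcl2a1d occupies chr9:88723285-88731914 on the minus strand, Bcl2a1a chr9:88956900-88962419 on the plus strand and Bcl2a1b chr9:89199209-89207827 on the plus strand. Their coding sequences are 516 bases long. Bcl2a1b and Bcl2a1d differ at 6 of these bases (98.8% identity) and share an unbroken identical run of 217 bases, Bcl2a1a and Bcl2a1d differ at 7 (98.6%) with a run of 314 bases, and Bcl2a1a and Bcl2a1b at 11 (97.9%). The first 90 coding bases, which lie in exon 1 of each gene, are shown because they hold a cluster of the bases that distinguish the copies. Capitals mark the 6 positions at which the copies are not all alike, and the sequences are given 5′ to 3′ on the coding strand, at chr9:88957051-88957140 (plus) for Bcl2a1a, chr9:89199360-89199449 (plus) for Bcl2a1b and chr9:88731630-88731719 (minus) for Bcl2a1d.
Bcl2a1a: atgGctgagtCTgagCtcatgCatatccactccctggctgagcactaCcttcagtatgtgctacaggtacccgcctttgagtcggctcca
Bcl2a1b: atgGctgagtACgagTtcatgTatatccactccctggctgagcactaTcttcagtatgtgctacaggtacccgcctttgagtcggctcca
Bcl2a1d: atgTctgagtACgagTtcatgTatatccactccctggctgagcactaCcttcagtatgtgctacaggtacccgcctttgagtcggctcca
Within this window Bcl2a1b and Bcl2a1d are told apart by 2 bases, and the remaining differences lie elsewhere in the coding sequence. A read that covers none of the differing bases cannot be placed on a single copy from its sequence. The level of each copy is therefore uncertain, and the sum over the copies depends less on how reads were divided among them.

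Summed over Bcl2a1a, Bcl2a1b and Bcl2a1d, the level was 190 ± 24.2 FPKM in Con compared with 180.02 ± 69.6 in Abx (SD, n = 3). The sums were 210.6, 163.41 and 196.04 FPKM in Con against 152.9, 259.11 and 128.05 in Abx, so that the Con range lay inside the Abx range. The log2 ratio of Bcl2a1d to Bcl2a1b was 2.06, 2.30 and 2.14 in Con, within a narrow range, and 3.45, 0.80 and -0.06 in Abx, on either side of it. Bcl2a1a was at 14.67, 16.77 and 7.80 FPKM in Con against 10.05, 0.83 and 0.82 in Abx (limma adjusted p = 0.476). In Abx libraries 2 and 3, where Bcl2a1b was high, Bcl2a1a was under 1 FPKM.

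A further gene shares exon sequence with Bcl2a1b. Gm29094 (chr9:89199379-89215471, plus strand, 2 exons) is annotated as a protein-coding overlapping locus, and its first exon of 401 bases lies within exon 1 of Bcl2a1b, covering 49.1% of the 817 exon bases of that gene. Gm29094 was at 86.82 FPKM in Abx library 1 and at 0.04 FPKM and 0 in the other Abx libraries, and it was listed at 0, 2.30 and 0 FPKM in Con. Its single high library was thus the library in which Bcl2a1b was lowest. Summed over both genes, the level was 37.81, 27.07 and 34.81 FPKM in Con (33.23 ± 5.54, SD, n = 3) and 98.78, 94.38 and 65.01 FPKM in Abx (86.1 ± 18.4, SD, n = 3), and the groups of this sum did not overlap. The sum was formed after the values were seen, so it was given no test, and how reads of the shared exon were divided between the genes was not tested. Summed over the 3 Bcl2a1 copies and Gm29094 together, the groups overlapped, at 165.71 to 210.6 FPKM in Con against 128.05 to 259.15 in Abx.

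**Figure D2:**
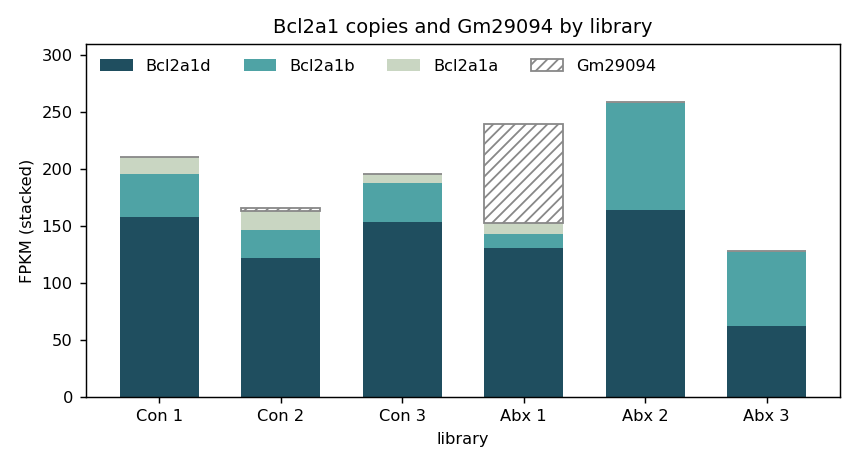
FPKM of Bcl2a1d, Bcl2a1b, Bcl2a1a and the overlapping gene Gm29094 (y axis, stacked) in each of the 6 libraries (x axis). Bcl2a1d is the largest copy in all Con libraries, Bcl2a1b is at 11.96 to 94.34 FPKM in the Abx libraries, and Gm29094 is high in Abx library 1, at 86.82 FPKM, where Bcl2a1b is lowest.

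Mcl1 (ENSMUSG00000038612, chr3:95658788-95663176, plus strand), which encodes a short-lived survival protein that lymphocytes need, was at 26.98, 36.07 and 66.12 FPKM in Con against 36.13, 24.19 and 32.50 in Abx. A single Con library was high, and the other 5 libraries lay between 24.19 and 36.13 FPKM. The fitted difference was -0.38 (SE 0.42, limma adjusted p = 0.803, 95% interval -1.36 to 0.59), and it became -0.031 without Con library 3, the highest, and -0.66 without Con library 1.

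Bcl2 (ENSMUSG00000057329, chr1:106538178-106714274, minus strand), the founding member of the family, was at 4.5, 6.00 and 7.24 FPKM in Con against 11.92, 12.35 and 4.33 in Abx. Abx libraries 1 and 2 were above each Con library and Abx library 3 was below them. The fitted difference was 0.51 (SE 0.68, limma adjusted p = 0.843), with a 95% interval of -1.07 to 2.10, and it ranged from 0.28 without Abx library 2 to 0.95 without Abx library 3.

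Bcl2l1 (ENSMUSG00000007659, chr2:152780668-152831728, minus strand), the gene of BCL-XL, was at 14.28, 24.15 and 12.85 FPKM in Con against 25.30, 5.93 and 11.62 in Abx. The groups overlapped, with Abx library 1 highest and Abx library 2 lowest. The fitted difference of -0.40 (SE 0.63, limma adjusted p = 0.867, 95% interval -1.86 to 1.05) became 0.061 without Abx library 2.

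Together the 5 pro-survival genes summed to 243 ± 30.8 FPKM in Con compared with 231 ± 63.8 in Abx (SD, n = 3). Bcl2 supplied 1.86% to 5.51% of the sum, Mcl1 8.04% to 24.1%, Bcl2l1 1.97% to 11.7% and Bcl2a1b 5.53% to 37.0%.

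Of the effectors, Bax (ENSMUSG00000003873, chr7:45461697-45466898, minus strand) carried 95.6% to 99.9% of the summed FPKM in the 6 libraries. It was at 94.04, 87.87 and 70.25 FPKM in Con against 72.16, 159.98 and 106.24 in Abx. Abx libraries 2 and 3 lay above the Con range and Abx library 1 within it. The fitted difference was 0.36 (SE 0.34, limma adjusted p = 0.761, 95% interval -0.42 to 1.14), and it was 0.069 without Abx library 2 and 0.64 without Abx library 1. Of its exon bases, 12.2% are shared with Gm45808, which was at 0.09 FPKM or less in each library.

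Bak1 (ENSMUSG00000057789, chr17:27019810-27029009, minus strand) was at 2.09, 0.08 and 0.09 FPKM in Con against 0.29, 0.51 and 4.86 in Abx. It reached 1 FPKM in 2 libraries, 1 of each group, and so did not pass the filter (exact two-sided permutation test, p = 0.5, and the lowest p open to 3 against 3 libraries is 0.1). At this level a difference in Bak1 was not detectable. Of its exon bases, 25.5% overlap Ggnbp1 on the opposite strand, which was at 1.05 FPKM or less in each library.

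Of the 3 BH3-only members followed, Pmaip1 (ENSMUSG00000024521), whose product neutralises MCL1 and A1, was the 1 without overlap between the groups. Con libraries 1 to 3 gave 31.02, 28.64 and 34.47 FPKM of Pmaip1, and Abx libraries 1 to 3 gave 0.09, 2.40 and 0.63 FPKM. Each Con library was above each Abx library. Pmaip1 reached 1 FPKM in the 3 Con libraries and 1 Abx library, and the Con libraries alone met the filter. The p and rank given next are therefore those of a gene that was kept for its Con levels. The ratio of the group means was 30.2, and the fitted difference was -4.15 on the log2(FPKM + 1) scale (SE 0.70, 95% interval -5.77 to -2.52). Pmaip1 ranked 32 of 8718 genes by p (unadjusted p = 0.000421, limma adjusted p = 0.0911), which did not pass the threshold, and 13 genes had a larger fitted decrease. An exact permutation test gave p = 0.1, the smallest p the design allows. Of the 10 genes, 1 had Abx libraries below all Con libraries, near the 8.73% of all genes tested, and 0 had them above, against 8.49%.

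Few genes had a clear level in each Con library and hardly any in each Abx library. Of 1955 genes with no Con library under 20 FPKM, 4 genes (0.205%) were under 5 FPKM in all 3 Abx libraries, namely Pmaip1, Sh3bp5, Rasl11a and Zswim7, while 151 (7.72%) were under 5 FPKM in at least 1 Abx library. In the opposite direction, 5 of 1784 genes (0.280%) with no Abx library under 20 FPKM were under 5 FPKM in all 3 Con libraries. These limits were set with the values of Pmaip1 known, so the counts describe where it lies. The T cell, B cell and NK cell marker sums and the Xist level given above separate the same libraries, and their part in the Pmaip1 difference was not tested.

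Bcl2l11 (ENSMUSG00000027381, chr2:128126038-128162547, plus strand), the gene of BIM, which binds all pro-survival proteins, was at 3.46, 0.96 and 2.03 FPKM in Con against 0.07, 4.65 and 0.03 in Abx. Abx library 2 was the highest of the 6 and the other Abx libraries were near 0. The fitted difference was -0.70 (SE 0.79, limma adjusted p = 0.812), and it ranged from -0.28 without Abx library 3 to -1.51 without Abx library 2 (limma, unadjusted p = 0.0348 for the latter), and was -0.0038 after quantile normalization.

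Bid (ENSMUSG00000004446, chr6:120891930-120916853, minus strand), whose product is cut by caspase 8 and links death receptors to the mitochondrion, was at 10.95, 0 and 3.43 FPKM in Con against 1.57, 0 and 0.10 in Abx. It was listed at 0 in library 2 of both groups, so the groups overlapped. The fitted difference was -1.41 (SE 0.93, limma adjusted p = 0.663), and it ranged from -0.57 without Con library 1 to -2.36 without Con library 2 (limma, unadjusted p = 0.0269 for the latter). Of its exon bases, 17.7% overlap Bcl2l13 on the opposite strand, a family member that was at 1.07 to 5.17 FPKM in Con against 0.05 to 7.26 in Abx, and reads of the overlap cannot be told apart without strand.

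**Figure D3:**
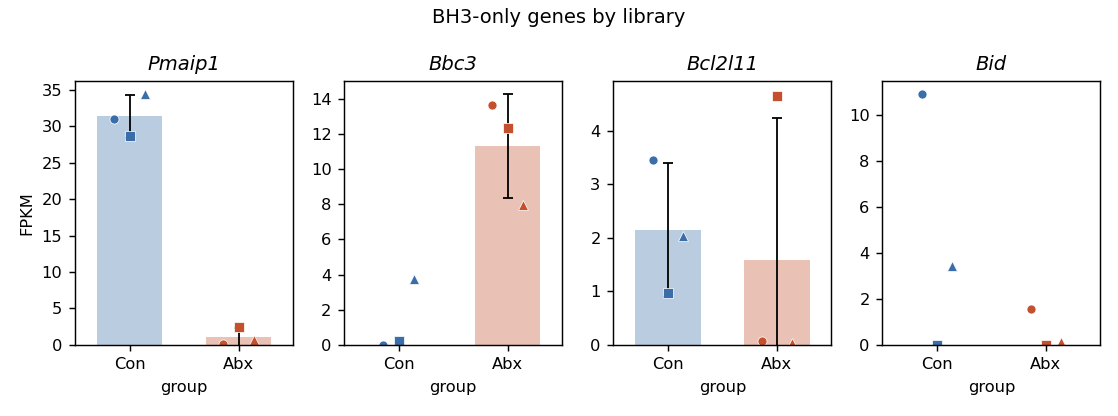
FPKM (y axis, a separate scale in each panel) of the BH3-only genes Pmaip1, Bbc3, Bcl2l11 and Bid in the Con and Abx groups (x axis). Points are libraries, and bars with error bars are the mean and SD of 3 libraries, drawn where no library of the group was at 0. Pmaip1 is at 28.64 to 34.47 FPKM in Con against 0.09 to 2.40 in Abx, Bbc3 lies in the opposite order, and Bcl2l11 and Bid overlap between groups.

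Summed over Bcl2l11, Pmaip1 and Bid, the BH3-only level was 45.43, 29.60 and 39.93 FPKM in Con against 1.73, 7.05 and 0.76 in Abx. The Con sum consisted mostly of Pmaip1, at 68.3% to 96.8%. Without Pmaip1 the sums overlapped, at 14.41, 0.96 and 5.46 FPKM in Con against 1.64, 4.65 and 0.13 in Abx. Other BH3-only genes are not in these sums. Bad was at 30.28, 13.31 and 23.74 FPKM in Con against 0.16, 68.94 and 20.14 in Abx. Bbc3 was at 0, 0.21 and 3.76 FPKM in Con against 13.66, 12.33 and 7.96 in Abx. Bik was at 23.86, 5.63 and 14.33 FPKM in Con against 0.41, 15.36 and 0 in Abx. The sum over the 3 members thus does not describe BH3-only expression as a whole.

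The roles were set against each other as log2 ratios of summed FPKM, which are descriptions without a test. The ratio of pro-survival to effector FPKM came to 1.33, 1.28 and 1.96 in Con against 1.58, 0.91 and 0.66 in Abx. Abx library 1 lay within the Con range and the other Abx libraries below it, and the group means differed by -0.47 (1.52 ± 0.38 in Con, 1.05 ± 0.47 in Abx, SD, n = 3), or by -0.25 without Con library 3 and -0.74 without Abx library 1. The ratio of pro-survival to BH3-only FPKM took in Bcl2l11, Pmaip1 and Bid alone, without Bad, Bbc3 and Bik. It came to 2.41, 2.85 and 2.78 in Con against 6.97, 5.41 and 7.85 in Abx. The difference of 4.06 came to 1.98, with overlapping groups, when Pmaip1 was left out. The log2 ratio of Mcl1 to Pmaip1 was -0.20, 0.33 and 0.94 in Con, so that both transcripts were at similar levels, and 8.65, 3.33 and 5.69 in Abx.

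The order of mean levels in Con was Bcl2a1d (144 FPKM), Bax (84.1), Mcl1 (43.1), Bcl2a1b (32.5), Pmaip1 (31.4), Bcl2l1 (17.1), Bcl2 (5.91), Bid (4.79), Bcl2l11 (2.15) and Bak1 (0.753). In Abx it was Bcl2a1d (119 FPKM), Bax (113), Bcl2a1b (57.1), Mcl1 (30.9), Bcl2l1 (14.3), Bcl2 (9.53), Bak1 (1.89), Bcl2l11 (1.58), Pmaip1 (1.04) and Bid (0.557). Pmaip1 thus stood beside Mcl1 and Bcl2a1b in Con and among the lowest genes in Abx. Bax was above Bcl2a1b in all 6 libraries, with a mean difference of 1.34 on the log2(FPKM + 1) scale (SD 0.69), Bcl2a1d was above Bax in 5, and Bcl2a1b was above Mcl1 in 3. By mean level in either group, each pro-survival gene and Bax lay above Bid, Bcl2l11 and Bak1.

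**Figure D4:**
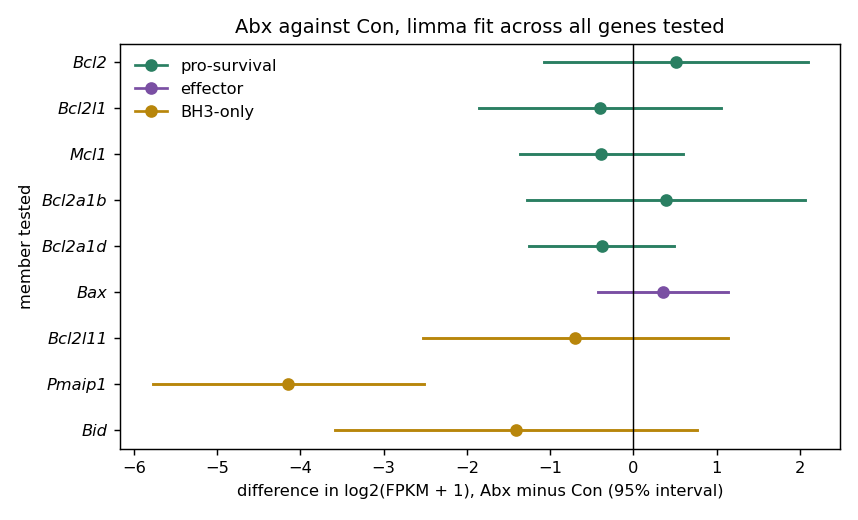
Difference between Abx and Con (x axis, log2(FPKM + 1)) for the 9 BCL2 family genes tested (y axis), colored by role. Points are limma estimates from 3 libraries a group and lines are 95% intervals. The interval of Pmaip1, from -5.77 to -2.52, lies below 0 and the intervals of the other 8 genes include 0.

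Of the 9 genes tested, 3 had a fitted difference above 0 and 6 below, with a median of -0.38, and the median over all 8718 genes tested was -0.06. For the 8 genes other than Pmaip1, limma adjusted p lay between 0.663 and 0.887. The 95% intervals of these genes reached at least 0.78 to either side of the estimate, so that smaller changes would not have been resolved with 3 libraries a group.

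The rest of the BCL2 family, 16 genes, held 8 that passed the filter and 0 that were called, with a median difference of -0.46. Bbc3, the gene of the BH3-only protein PUMA, was listed at 0, 0.21 and 3.76 FPKM in Con against 13.66, 12.33 and 7.96 in Abx. Each Abx library was above each Con library, which held for 8.49% of all genes tested. The Abx libraries alone met the filter, so the fit given next is that of a gene kept for its Abx levels. The fitted difference of Bbc3 was 2.75 (SE 0.84, limma unadjusted p = 0.0121, limma adjusted p = 0.226). Bbc3 was the 1 gene of the 8 at an unadjusted p under 0.05, a share near the 11.0% of all genes tested. Pmaip1 and Bbc3 are both textbook targets of p53. Trp53 itself, named here outside the naming rule, was at 63.15, 95.35 and 48.04 FPKM in Con against 30.64, 34.36 and 73.73 in Abx, with overlapping groups (limma adjusted p = 0.684). Its RNA level is not a measure of p53 activity, and a part of p53 in either difference was not tested.

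Several other family genes were near 0 in Abx library 1 but not in Abx library 2. The BH3-only gene Bad was at 13.31 to 30.28 FPKM in Con against 0.16, 68.94 and 20.14 in Abx, Bik at 5.63 to 23.86 FPKM in Con against 0.41, 15.36 and 0 in Abx, and Bcl2l12 at 15.08 to 21.40 FPKM in Con against 0.04, 32.91 and 27.91 in Abx. The groups overlapped for all 3 genes. Bnip3l, a mitophagy receptor, was at 26.60 to 40.36 FPKM in Con against 32.60 to 55.11 in Abx, and its relative Bnip3 at 0.17 to 14.01 and 0.69 to 17.25 FPKM. Bmf and Bcl2l15 did not pass the filter, with highest values of 2.97 and 1.65 FPKM, and the anti-apoptotic Bcl2l2, as well as Bok and Bcl2l10, stayed under 1 FPKM in all libraries. Bcl2a1c, Hrk and Bcl2l14 were listed at 0 in all 6 libraries.

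Downstream of the mitochondrion, 12 of 13 apoptosome and caspase genes were tested and 0 were called, with a median of 0.44. At an unadjusted p under 0.05 there were 1 above and 2 below 0, where 11.0% of all genes tested reached that p. Cycs, the gene of cytochrome c, was at 133.12, 93.53 and 97.05 FPKM in Con against 191.34, 225.27 and 196.88 in Abx (difference 0.93, SE 0.23, limma adjusted p = 0.141). Apaf1, the scaffold that cytochrome c activates, was at 14.00, 15.79 and 17.18 FPKM in Con against 6.00, 2.81 and 0.07 in Abx (difference -2.44, SE 0.85, limma adjusted p = 0.304). The groups did not overlap for either gene, which held for 8.49% of all genes tested with Abx higher and 8.73% with Abx lower. Casp2 was at 1.16 to 3.07 FPKM in Con and at 0.02 FPKM or less in Abx, and it passed the filter through the Con libraries alone, so that its place among the genes below 0 was set by the filter.

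Of 11 genes of mitochondrial outer membrane partners, all 11 were tested (median 0.17), 0 were called, and 1 was at an unadjusted p under 0.05 (11.0% of all genes tested were), the fission adaptor Fis1, at 76.15 to 107.19 FPKM in Con against 129.82 to 193.31 in Abx (difference 0.79, SE 0.27, limma adjusted p = 0.292). Vdac2, the channel that holds BAK, was at 39.85, 20.16 and 30.82 FPKM in Con against 44.25, 39.22 and 58.78 in Abx, and Vdac1 and Tomm22 also overlapped between the groups. Of 9 inhibitors of apoptosis, 5 were tested (median -0.087) and 0 reached an unadjusted p under 0.05. The smallest p among them were those of Birc5, Birc2, Birc6 and Naip5, with limma adjusted p from 0.732 to 0.901.

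Of the death receptor arm, 9 of 11 genes were tested and 0 were called, with 4 fitted differences above 0 and 5 below. The median of -0.998 includes Tnfsf10, a gene kept for its Con levels, so it is no measure of a shift of the list. Cflar, the gene of the caspase 8 inhibitor FLIP, was at 97.53, 119.60 and 118.66 FPKM in Con against 193.23, 227.83 and 256.85 in Abx, with each Abx library above each Con library (difference 1.0, SE 0.22, limma adjusted p = 0.109). Abx lay wholly above Con in this way for 8.49% of all genes tested. Tnfsf10, the gene of the death ligand TRAIL, was at 2.65, 5.16 and 4.68 FPKM in Con against 0.42, 0.03 and 0.01 in Abx and passed the filter through the Con libraries alone, so no test is given for it. With Tnfsf10 left out for that reason, Cflar was the 1 gene of this list at an unadjusted p under 0.05, where 11.0% of all genes tested reached that p. Fas was at 9.77 to 12.41 FPKM in Con against 0.12, 12.31 and 0.04 in Abx, and Ripk3 likewise overlapped between the groups.

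Upstream, 14 of 19 regulators of BCL2 family genes were tested, 0 were called, 3 had a fitted difference above 0 and 11 below, and the median was -0.54. The median of all genes tested was -0.06. Stat5a, which carries common gamma chain signals to Bcl2 and Mcl1, was at 5.34, 4.53 and 1.55 FPKM in Con against 0.62, 0 and 0.06 in Abx. Stat5a passed the filter through the Con libraries alone, so no test is given for it. The 11 genes below 0 and the median of -0.54 include it. Rela, an NF-kB subunit that drives Bcl2a1 genes, was at 57.72, 59.94 and 44.07 FPKM in Con against 0.30, 29.34 and 13.96 in Abx (limma adjusted p = 0.396). The groups of Rela did not overlap either, which held for 8.73% of all genes tested with Abx lower. The groups of Foxo1, a driver of Bcl2l11, and the MCL1 deubiquitinase gene Usp9x overlapped. Of 12 survival cytokine receptor genes, which include their kinases, 10 were tested and 0 were called, with a median of -0.71. Kit was at 1.51 to 14.91 FPKM in Con against 0.02 to 0.65 in Abx. It too passed the filter through the Con libraries alone, and the median of -0.71 includes it. Jak3 was at 18.98 to 33.73 and 0.52 to 18.67 FPKM (limma adjusted p = 0.454), without overlap, against the same 8.73% of all genes tested. Il7r, the receptor of a main survival cytokine of ILC2s, was at 37.15, 18.09 and 56.41 FPKM in Con against 45.21, 57.33 and 45.40 in Abx, and Il2rb also overlapped.

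**Figure D5:**
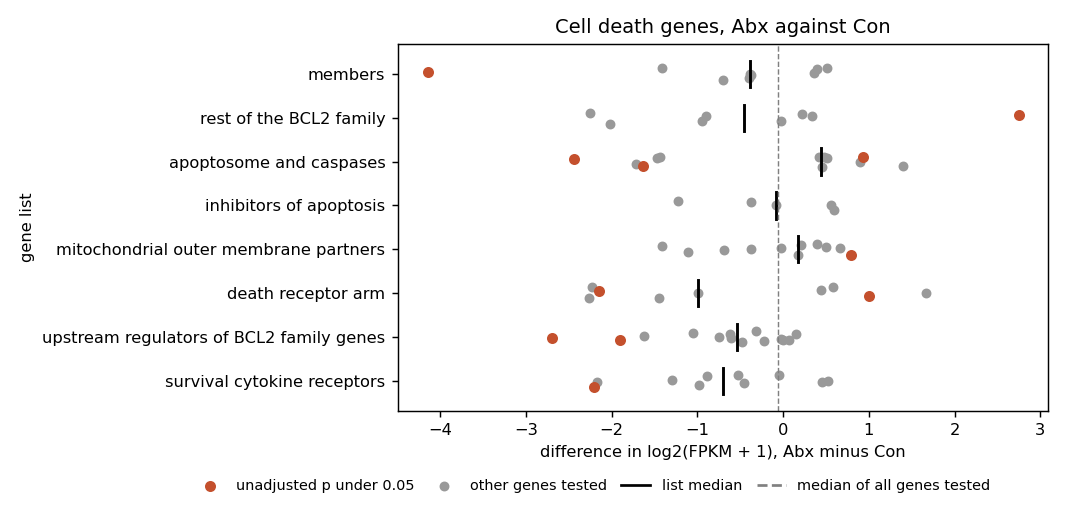
Difference between Abx and Con (x axis, log2(FPKM + 1)) of each gene tested, by list (y axis). Orange points have an unadjusted p under 0.05, black ticks are list medians and the dashed line is the median of all genes tested, -0.06. Pmaip1 (-4.15) and Bbc3 (2.75) are the outermost points in the 2 upper rows.

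Genes whose log2(FPKM + 1) followed a BCL2 family gene most closely over the 6 libraries were ranked by Pearson r, as a description across libraries that share their group, sort and processing. For Mcl1 they were Reep4 (r = 0.987), A730017L22Rik (0.968) and Orai2 (0.965). For Bcl2 they were Gm37772 (0.980), Ubr4 (0.973) and Gtf2h4 (0.970), and for Bcl2a1b they were Ccdc43 (0.994) and Rps15a-ps7 (0.990). For Bcl2l11 they were Rfng (0.992), Ascc2 (0.990) and Bri3 (0.989). With 6 libraries high values are frequent, and between 10 (Mcl1) and 187 (Bcl2l11) genes exceeded 0.9 for these members and 294 for Pmaip1.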

How the data were processed

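SMART-seq was performed on 3 Abx and 3 Con libraries of 1000 sorted cells. The deposited values are FPKM per gene, which the authors obtained by trimming with Cutadapt, mapping with HISAT2 and quantification with StringTie. The methods name a human Ensembl annotation, the submitters' processing notes name Bowtie 0.12.2 and the builds mm8 and mm9, and the identifiers are those of mouse genes. Of the 55394 identifiers, 55134 are in GENCODE M21 (GRCm38), from which coordinates and coding sequences were taken. Whether counting used strand is not given in the sources used here. The authors compared the groups with DESeq2, which needs counts and was not repeated.

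Genes at 1 FPKM or more in at least 3 of 6 libraries were tested on log2(FPKM + 1) with limma 3.58.1 (lmFit and eBayes with trend, two-sided, Benjamini-Hochberg) in R 4.3.3, without a block, and calls needed adjusted p below 0.05 and more than a 2-fold difference, as in the study's methods. A gene under the filter was given an exact permutation test. The script was tested on simulated data. Tables and figures were made with Python 3.11.15, pandas 2.3.3, numpy 2.4.6, scipy 1.17.1 and matplotlib 3.10.9. Also run were pseudocounts of 0.1 and 0.01, quantile normalization, median centring, no filter, a stricter filter (mean of 5 FPKM), robust variance, no limit on the fold change, the replicate number as a block, each library left out over the same 8718 genes, and other forms of the ratios.

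The 10 genes, the gene lists and the marker lists were chosen with earlier results of these data known. Named were all 10 genes, family genes at 1 FPKM or more in any library, up to 4 genes per list with the smallest p, and the 3 genes most correlated with each of 4 members. Some genes that this rule names are not reported here. Where a list gene had a second entry with its symbol (Stat5a and Ddit3), the entry with the annotated identifier was used.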

Additional observations from a re-analysis of the deposited data

How the results depend on the processing

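No BCL2 family gene was called under any alternative run. Of 124 values of single members under alternatives, 121 kept their direction and 3 reversed: Bcl2l1 (0.061) and Bcl2a1b (-0.17) without Abx library 2, and Bcl2a1d (0.029) without Abx library 3. The count of 121 is no measure of stability. Both changes of the filter, the replicate block and robust variance leave the estimate of a member unchanged, so those values could not reverse. Bcl2l11 after quantile normalization, at -0.0038, was counted as kept. With each library left out, Bcl2l1 ranged from -0.90 to 0.061, Bcl2a1b from -0.17 to 1.27 and Bcl2a1d from -0.66 to 0.029. For Pmaip1 the difference ranged from -5.87 to -3.78 over 14 alternatives, with limma adjusted p from 0.0828 to 0.293. Genes called over the whole table numbered 5 in the reported fit and with robust variance, and 7 with quantile normalization or with the stricter filter. They numbered 0 with a pseudocount of 0.1 or 0.01, with median centring, without a filter or with the replicate block. With each library left out they numbered 0 to 2 (2 without Abx library 2). Members at an unadjusted p under 0.05 numbered 1 to 2 with each library left out, the additional ones being Bid without Con library 2, Bcl2a1b without Abx library 1 and Bcl2l11 without Abx library 2. The difference in the log2 ratio of pro-survival to BH3-only FPKM, 4.06 as reported, was 2.03 from mean log2 values and 1.98 without Pmaip1, an alternative chosen after seeing the data. Same-numbered libraries correlated at -0.02, -0.029 and 0.01 in their deviations from the group means. No shared deviation was seen, but these values cannot tell whether libraries were made in pairs, which the sources used here do not give. With the replicate block, 1 member, Pmaip1, stayed at an unadjusted p under 0.05 (limma adjusted p = 0.293). Summing entries of the same symbol gave no value, since no member had a second entry. With no counts, the read depth behind low values such as those of Bid, Bcl2l11 and Bak1 is unknown, and 3 libraries a group limit what could be detected.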
